A study of Mus musculus with 10 samples.

Results

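The smooth muscle contractile genes described here are Acta2, Actg2, Tagln, Myl9, Cnn1, Cnn2, Tpm1, Tpm2, Cald1 and Actn1. They were measured by 20 probe sets that the array annotation assigns to exactly 1 of these 10 symbols, out of 20393 probe sets with 1 symbol (12394 genes) and 22690 on the array. Values are log2 RMA values, and a probe set is a group of short probes whose brightness is summarised into 1 value per array. RNA of sorted mammary cells of FVB/N mice was hybridised to 10 Affymetrix arrays in a study on the stroma and the stem cells of Wnt-Met mammary tumours. COF are fibroblasts from mammary glands of wild-type control mice (3 arrays). CAF are cancer-associated fibroblasts (3 arrays), CSC cancer stem cells (2 arrays) and TEC a further sorted population whose abbreviation the labels do not spell out (2 arrays), all from tumours of mice with the genotype label WAPCre-DNbcatn;HGF. That label names a Cre line under the promoter of the milk protein Wap, a beta-catenin construct and HGF, the ligand of the receptor Met. Genotype, tumour tissue and population differ together between COF and CAF and cannot be told apart. One label field of the TEC samples reads TEFs. Ages and sorting gates are not given in the sources used here, and nothing says whether arrays of a population came from separate mice, so p-values measure only the spread between these samples.

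Smooth muscle cells contract when myosin slides along actin filaments, and the 10 genes encode parts of that filament system. Acta2 and Actg2 are the smooth muscle actins. Tagln (SM22), the calponins Cnn1 and Cnn2, the tropomyosins Tpm1 and Tpm2 and caldesmon Cald1 bind and steady the filament, Myl9 is the regulatory light chain of the myosin motor, and Actn1 (alpha-actinin) cross-links filaments at adhesion sites. In the mammary gland the cells that make these genes include vascular smooth muscle cells, pericytes and myoepithelial cells, but not all 10 are restricted to them. Fibroblasts that take up such genes are called myofibroblasts, a state often described in tumour stroma. Serum response factor, Srf, drives many of them through a DNA element called the CArG box, with myocardin or a related co-activator.

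The promoter sequences are shown because Srf elements are the best known feature that these genes can share. RefSeq promoters (mouse build GRCm38.p6) were found for 8 of the 10 genes, all but Actg2 and Tagln, and the 250 bases before each transcription start were searched on both strands. CArG boxes lay before Myl9 and Cnn2. Boxes with 1 G or C in the A/T core, here called CArG-like and counted apart from the CArG boxes, lay before Acta2 and Myl9. Capitals mark the box, and each line reads 5′ to 3′ on the strand of the gene.
Acta2, CArG-like, chr19:34255428-34255477, minus strand: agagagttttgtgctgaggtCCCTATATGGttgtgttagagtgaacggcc
Acta2, CArG-like, chr19:34255378-34255427, minus strand: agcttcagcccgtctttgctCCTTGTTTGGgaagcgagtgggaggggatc
Myl9, CArG, chr2:156775283-156775332, plus strand: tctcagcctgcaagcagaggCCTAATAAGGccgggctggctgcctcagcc
Myl9, CArG-like, chr2:156775345-156775394, plus strand: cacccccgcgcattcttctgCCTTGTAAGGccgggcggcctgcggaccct
Cnn2, CArG, chr10:79988524-79988573, plus strand: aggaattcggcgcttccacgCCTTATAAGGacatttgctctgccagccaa
The boxes of Acta2 span positions -84 to -75 and -34 to -25 from the start, those of Myl9 -161 to -152 and -99 to -90, and that of Cnn2 -56 to -47. Of all 32851 promoters in the table, 1.47% hold a CArG box and 7.24% a CArG-like box in this window. The motif CATTCC, in either direction, lies before Acta2, Tpm1 and Cald1, and in 12.6% of all promoters. For Cald1 it lies in the promoter at chr6:34598254-34598553, and that at chr6:34709194-34709493 holds none of the searched letters. Counted by gene, the shares are 1.62% for CArG boxes, 8.33% for CArG-like boxes and 14.4% for CATTCC. None of the searched letters lies in this window of Cnn1, Tpm2 and Actn1. A match describes these letters and is not evidence of binding.

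The array medians lay between 6.89 and 7.02 and the lower quartiles between 5.05 and 5.26, and a probe set below the lower quartile of its array is called dim here. The fibroblast marker list was high in the fibroblast arrays, with a list median of 13.85 to 14.04 in COF and 13.69 to 13.84 in CAF. In TEC and CSC the leukocyte list (13.15 and 13.54, 11.00 and 11.43) and the epithelial list (9.72 and 10.32, 12.27 and 12.49) were high. Some arrays stood apart within their population. COF replicate 2 had a higher epithelial list median (7.35, against 6.05 and 6.56) and leukocyte list median (6.07, against 5.22 and 5.66) than the other COF arrays, and TEC replicate 2 had a fibroblast list median of 12.55 against 9.63 in TEC replicate 1. The leukocyte list median of CAF replicate 3 was 8.12, against 6.85 and 6.79. The 3' minus 5' difference of Actb, a sign of RNA quality, was 0.66 to 0.76 in COF, 0.59 to 0.61 in CAF, 0.63 and 0.62 in CSC and 0.32 and 0.46 in TEC. That of Gapdh was 0.05 to 0.14 in COF, 0.06 to 0.15 in CAF, 0.29 and 0.30 in CSC and 0.26 and 0.24 in TEC. The controls thus ordered the populations differently.

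Tumour fibroblasts carried more transcript of most of the contractile genes than fibroblasts of control glands. In CAF minus COF, 11 of the 20 probe sets were higher at an adjusted p under 0.05 and 0 were lower, against 16.3% higher and 17.4% lower among all probe sets (limma). They belonged to 7 of the 10 genes: Acta2, Actg2, Tagln, Cnn2, Tpm1, Tpm2 and Actn1. Myl9, Cnn1 and Cald1 did not pass. The CAF arrays lay above every COF array in 16 of the 20 probe sets, against 27.7% of all probe sets, and the median difference was 1.24 on the log2 scale against 0.01 over all probe sets. The members were chosen with earlier results of these data known, so these counts describe the list and are not independent evidence. In arrays of bulk RNA, fewer cells that make a transcript and less transcript per cell cannot be told apart.

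**Figure D1:**
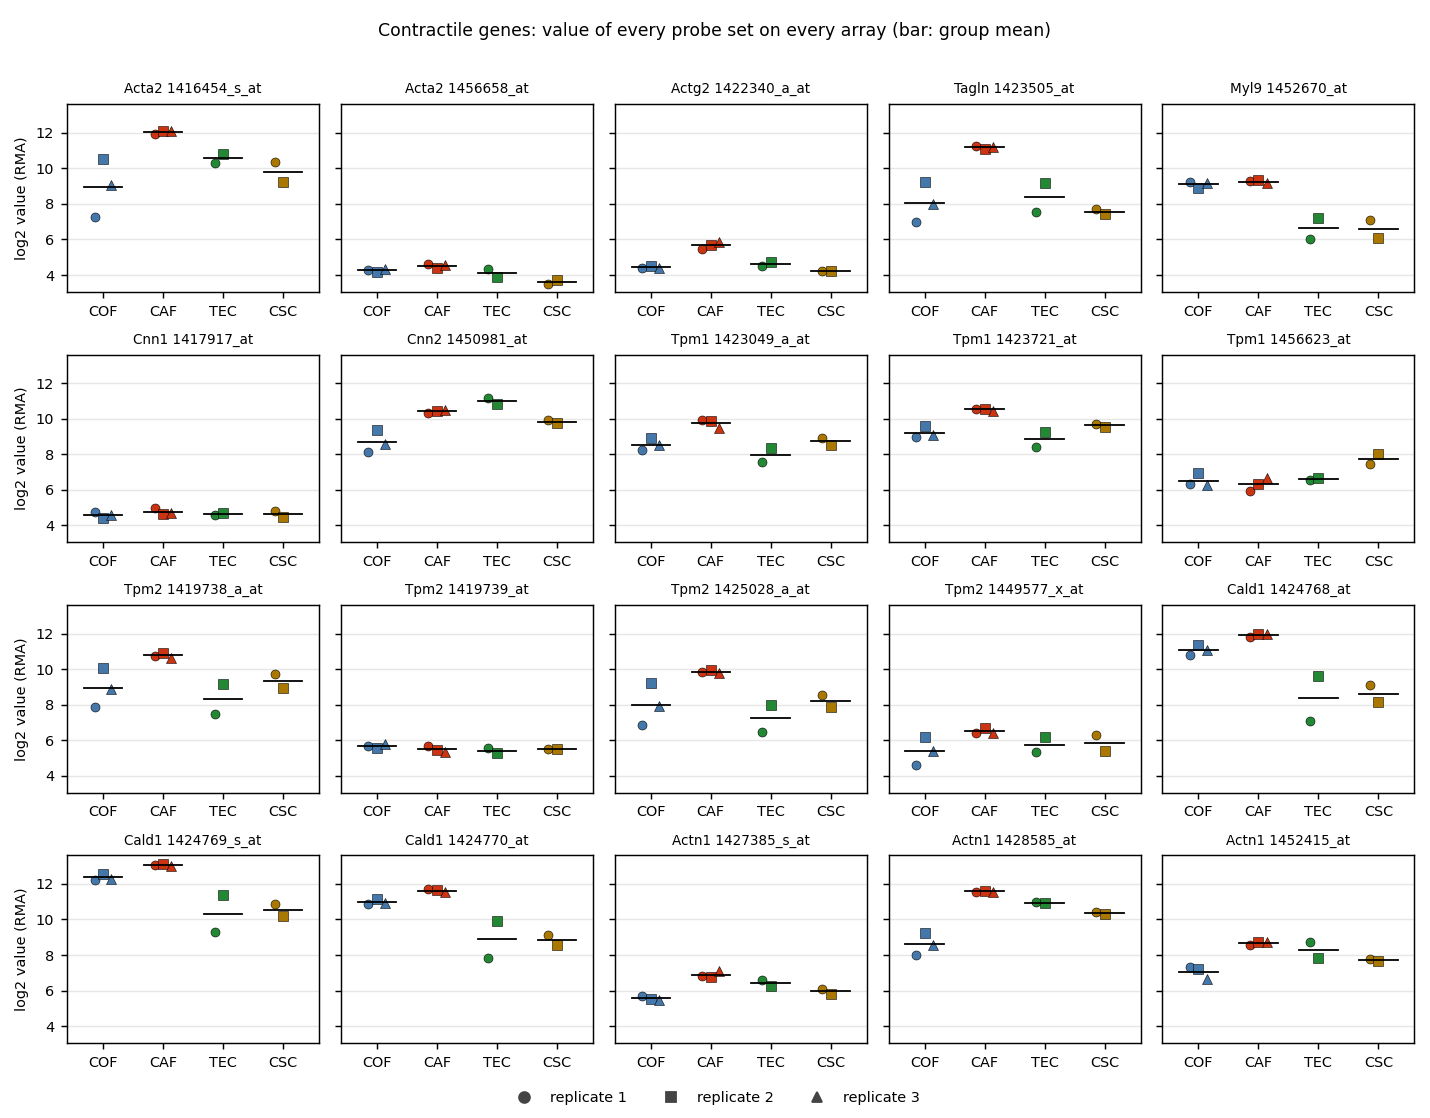
Log2 RMA value (vertical axis) of each of the 20 probe sets on each of the 10 arrays, by population (horizontal axis). Symbols are replicates and the bar is the population mean. The 3 CAF arrays sit close together and above the other populations for Acta2 1416454_s_at, Actg2 and Tagln, whereas the COF and TEC arrays of many probe sets lie far apart. Values of different probe sets are not comparable.

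Acta2, smooth muscle alpha-actin, was read by the bright probe set 1416454_s_at at 7.28, 10.53 and 9.08 on COF replicates 1 to 3, and at 11.93, 12.12 and 12.08 in CAF. The TEC arrays read 10.28 and 10.83 and the CSC arrays 10.34 and 9.26. All 3 CAF arrays exceeded every other array, and the COF arrays spanned a wider range than any other population and overlapped TEC and CSC. The CAF minus COF difference was 3.08 ± 0.67 (SE), or 8.46-fold (limma adjusted p = 0.00661). It was 2.24 without COF replicate 1 (adjusted p = 0.00802) and 3.86 without COF replicate 2 (adjusted p = 0.000822).

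The other Acta2 probe set, 1456658_at, was dim on all 10 arrays. It read 4.28, 4.19 and 4.32 in COF, 4.60, 4.41 and 4.54 in CAF, 4.34 and 3.88 in TEC and 3.52 and 3.70 in CSC. The CAF arrays again lay above the COF arrays, but by 0.25 ± 0.13 (adjusted p = 0.163), and this did not pass, although it did in a fit on CAF and COF alone (adjusted p = 0.0346). Over the 10 arrays the values of the Acta2 probe sets had a Pearson correlation of 0.32. The ending _s_at marks probe sets whose probes can match transcripts of more than 1 gene, and whether related actins add to the bright probe set was not tested. The skeletal alpha-actin Acta1 read 5.33 to 5.50 in COF, 5.16 to 5.30 in CAF, 7.51 and 8.47 in TEC and 6.85 and 6.31 in CSC.

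Actg2, smooth muscle gamma-actin, read 4.38, 4.53 and 4.41 in COF and 5.49, 5.71 and 5.88 in CAF. In TEC it read 4.50 and 4.71, and in CSC 4.23 and 4.25. The 3 CAF arrays were the only ones above the lower quartile, and no other array came within their range. Actg2 rose in CAF against COF by 1.25 ± 0.11, or 2.38-fold (limma adjusted p = 9.12e-05). Since the COF arrays were dim, the fold may understate the difference in transcript.

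Among the filament-binding genes, Tagln differed most between the fibroblast populations. It read 6.98, 9.21 and 8.02 in COF, 11.25, 11.10 and 11.22 in CAF, 7.56 and 9.17 in TEC and 7.69 and 7.41 in CSC. CAF stood above all other arrays, and COF, TEC and CSC overlapped. The CAF minus COF difference was 3.12 ± 0.53, or 8.71-fold (limma adjusted p = 0.00197), with 2.58 without COF replicate 1 and 3.69 without COF replicate 2.

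The calponins behaved unlike each other. Cnn1, the smooth muscle calponin, was dim on all 10 arrays, with 4.42 to 4.75 in COF, 4.62 to 4.97 in CAF, 4.59 and 4.67 in TEC and 4.79 and 4.48 in CSC. No difference of Cnn1 passed in any of the 4 comparisons, and for CAF minus COF the 95% confidence interval ran from -0.14 to 0.46. Cnn2, the calponin found also outside muscle, read 8.12, 9.35 and 8.59 in COF, 10.32, 10.46 and 10.49 in CAF, 11.18 and 10.85 in TEC and 9.94 and 9.74 in CSC. Its highest population was thus TEC, followed by CAF, CSC and COF, with no overlap between any of them. Cnn2 rose in CAF against COF by 1.74 ± 0.26, or 3.33-fold (adjusted p = 0.00103), whereas TEC and CAF, next to each other in that order, did not pass (adjusted p = 0.101), nor did CAF and CSC (adjusted p = 0.103). Both passed at the same differences in fits on only the 2 populations compared (adjusted p = 0.0107 and 0.00305), without COF replicate 1 (0.0389 and 0.0400) and without COF replicate 2 (0.0134 and 0.0139).

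Tpm1, alpha-tropomyosin, makes many splice forms, and its 3 probe sets did not all show the same pattern. The brightest, 1423721_at, read 9.00, 9.61 and 9.06 in COF, 10.57, 10.55 and 10.45 in CAF, 8.39 and 9.28 in TEC and 9.70 and 9.55 in CSC. CAF was above all other arrays, by 1.30 ± 0.23 against COF (adjusted p = 0.00225), and 1423049_a_at moved with it (1.22 ± 0.24, adjusted p = 0.00440). The third probe set, 1456623_at, was highest in CSC (7.43 and 8.01), against 6.26 to 6.95 in COF, 5.92 to 6.66 in CAF and 6.56 and 6.69 in TEC. It was lower in CAF than in CSC by 1.42 on the log2 scale (limma difference -1.42 ± 0.27, adjusted p = 0.00134) and did not pass between CAF and COF. Which splice forms each probe set reads is not given in the files used here.

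Tpm2, beta-tropomyosin, was read most brightly by 1419738_a_at, at 7.89, 10.08 and 8.86 in COF, 10.76, 10.91 and 10.63 in CAF, 7.47 and 9.16 in TEC and 9.75 and 8.91 in CSC. COF replicate 2 came within 1 log2 unit of the CAF arrays, and COF replicate 1 lay far below them. The difference CAF minus COF was 1.82 ± 0.56 (adjusted p = 0.0321). The probe set 1425028_a_at gave 1.86 ± 0.56 (adjusted p = 0.0291), and 1449577_x_at gave 1.13 ± 0.39 and did not pass (adjusted p = 0.0515), although it did in a fit on CAF and COF alone (adjusted p = 0.0292). The call of the first pair was lost without COF replicate 1 (1.29, adjusted p = 0.112, and 1.28, adjusted p = 0.0913), and also without COF replicate 3 or any 1 CAF array. The fourth Tpm2 probe set, 1419739_at, stayed between 5.27 and 5.77 on all 10 arrays.

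Cald1, caldesmon, set the fibroblasts apart from the other tumour populations. Its brightest probe set, 1424769_s_at, read 12.24, 12.55 and 12.30 in COF, 13.07, 13.13 and 13.00 in CAF, 9.28 and 11.35 in TEC and 10.86 and 10.20 in CSC. All CAF arrays lay above all COF arrays, and both lay above TEC and CSC, which overlapped. The CAF minus COF difference was 0.70 ± 0.43 and did not pass (limma adjusted p = 0.253), nor did 0.85 ± 0.53 and 0.63 ± 0.41 in the other Cald1 probe sets. In a fit on the CAF and COF arrays alone the 3 probe sets passed at the same differences (adjusted p of 0.000946 to 0.00200), as they did without either TEC array (0.00847 to 0.0171). The TEC arrays, whose spread enters the standard error, differed by more than 2 log2 units in each Cald1 probe set.

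Myl9, the myosin regulatory light chain, did not differ between control and tumour fibroblasts beyond the spread of the arrays. It read 9.26, 8.90 and 9.15 in COF and 9.27, 9.33 and 9.16 in CAF, with overlap. In TEC it read 6.05 and 7.22 and in CSC 7.09 and 6.06, far below both fibroblast populations. CAF minus COF was 0.15 ± 0.31 (adjusted p = 0.782), with a 95% confidence interval of -0.56 to 0.86.

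Actn1, alpha-actinin, had the smallest adjusted p of the 10 genes in CAF minus COF. Its brightest probe set, 1428585_at, read 8.00, 9.26 and 8.58 in COF, 11.55, 11.61 and 11.57 in CAF, 10.96 and 10.94 in TEC and 10.41 and 10.30 in CSC. The populations did not overlap and ran from CAF over TEC and CSC down to COF. CAF exceeded COF by 2.96 ± 0.25, or 7.78-fold (limma adjusted p = 6.71e-05). The neighbours CAF and TEC (0.63 ± 0.28, adjusted p = 0.0734) and TEC and CSC (adjusted p = 0.149) did not pass. Both passed in fits on only the 2 populations compared (adjusted p = 0.00185 and 0.0485), without COF replicate 1 (0.0139 and 0.0395) and without COF replicate 2 (0.00701 and 0.0218).

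The other Actn1 probe sets gave smaller differences between CAF and COF. The probe set 1427385_s_at read 5.70, 5.52 and 5.46 in COF, 6.80, 6.77 and 7.11 in CAF, 6.62 and 6.24 in TEC and 6.08 and 5.82 in CSC, and rose by 1.33 ± 0.14 in CAF (adjusted p = 0.000177). The probe set 1452415_at read 7.33, 7.21 and 6.63 in COF, 8.56, 8.72 and 8.76 in CAF, 8.76 and 7.81 in TEC and 7.75 and 7.68 in CSC, and rose by 1.62 ± 0.24 (adjusted p = 0.00104). Here 1 TEC array reached the CAF range. The 3 probe sets gave the same order of population means, CAF, TEC, CSC and COF, though the arrays within a population were ordered differently. Their pairwise correlations were 0.88 to 0.96 over the 10 arrays, and between CAF and COF they differed in the size of the change and not in its direction.

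**Figure D2:**
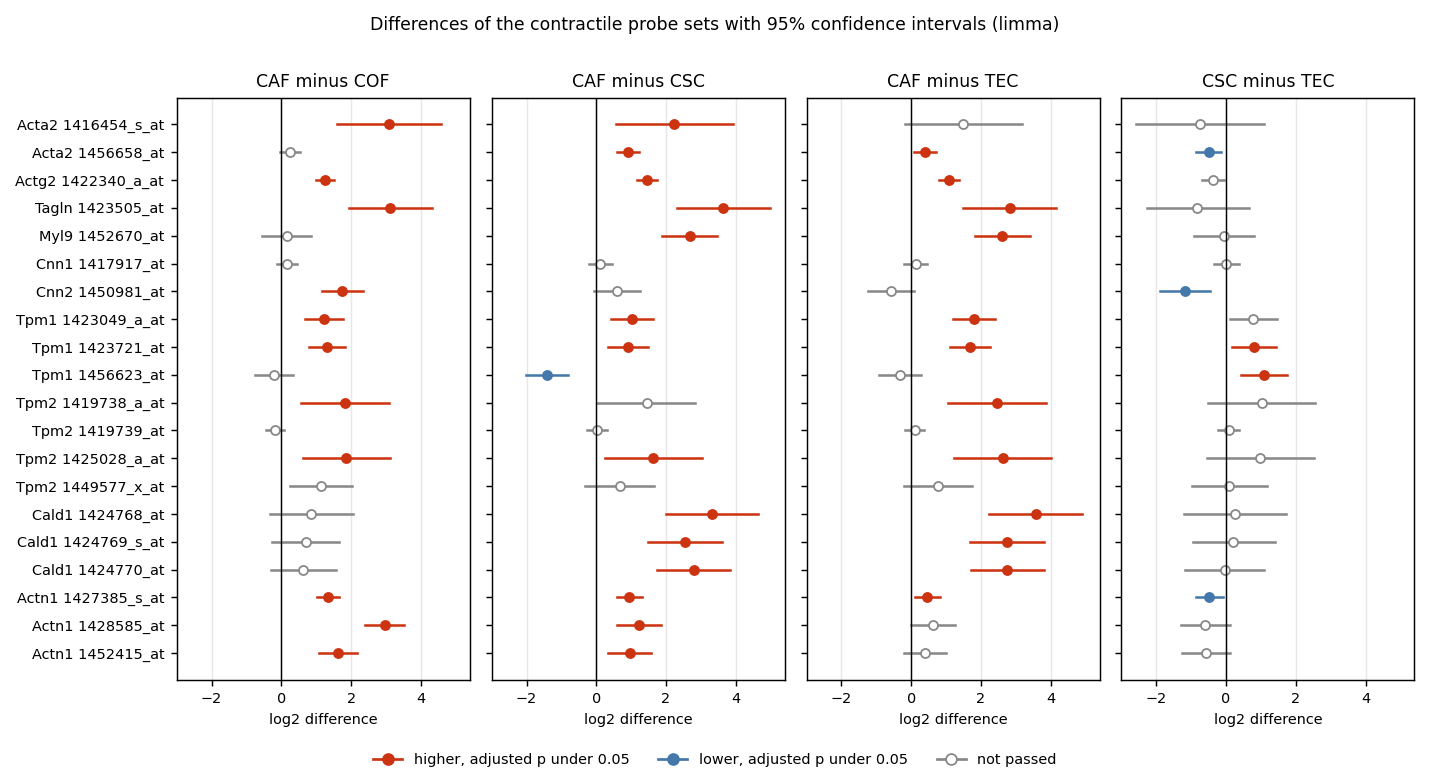
Log2 difference (horizontal axis) of each contractile probe set in the 4 comparisons, with 95% confidence intervals from limma. Filled points passed at an adjusted p under 0.05, in red where the first population was higher and in blue where it was lower. In CAF minus COF the 11 probe sets that passed lie between 1.22 and 3.12, and the intervals of the CSC minus TEC panel mostly span 0.

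Against the other tumour populations, CAF carried more of most contractile genes as well, but these comparisons separated a large part of the array. In CAF minus CSC, 14 of the 20 probe sets were higher and 1 lower, against 33.5% higher and 31.3% lower among all probe sets, with a member median of 1.12 (0.04 over all). Tagln was 12.5-fold higher in CAF (3.64 ± 0.59, adjusted p = 0.000521), the Cald1 probe set 1424768_at 9.96-fold (3.32 ± 0.59, adjusted p = 0.000901) and Myl9 6.40-fold (2.68 ± 0.35, adjusted p = 0.000133). Acta2 1416454_s_at was 2.24 ± 0.74 higher (limma adjusted p = 0.0242). That call was lost without CSC replicate 2 (1.70, adjusted p = 0.164) and without any 1 CAF array (adjusted p of 0.0502 to 0.0567). In a fit on CAF and CSC alone 16 of the 20 probe sets were higher and 1 lower. Among all 20393 probe sets that fit gave 7197 higher, against 6841 in the reported fit.

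In CAF minus TEC, 12 probe sets were higher and 0 lower, against 38.6% higher and 27.8% lower among all probe sets, with a member median of 1.29 (0.13 over all). The Cald1 probe set 1424768_at differed by 3.57 ± 0.59 (adjusted p = 0.000544), Tagln by 2.82 ± 0.59 (adjusted p = 0.00227), Myl9 by 2.61 ± 0.35 (adjusted p = 0.000153) and Tpm2 1419738_a_at by 2.45 ± 0.62 (adjusted p = 0.00652). Acta2 1416454_s_at did not pass (1.49 ± 0.74, adjusted p = 0.104), although all CAF arrays lay above both TEC arrays, and it passed in a fit on CAF and TEC alone (adjusted p = 0.00113), without COF replicate 1 (0.0161) and without COF replicate 2 (0.0290). That fit on CAF and TEC gave 13 higher and 1 lower. Among all 20393 probe sets it gave 7685 higher, against 7878 in the reported fit. It gained 4 member calls and lost those of Acta2 1456658_at (0.0705) and Actn1 1427385_s_at (0.0544). The 2 TEC arrays weighed equally on these differences, in opposite directions. Without TEC replicate 1 the Cald1 difference was 2.31, Tagln 2.02 and Tpm2 1.60. Without TEC replicate 2 they were 4.83, 3.63 and 3.30. These comparisons share the CAF arrays with each other and with CAF minus COF. The leukocyte, epithelial and fibroblast list medians given above also set CAF apart from TEC and CSC, and their part in these differences was not tested.

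Between the stem cell arrays and TEC few contractile probe sets passed. In CSC minus TEC, 2 were higher and 3 lower, against 25.7% and 19.2% of all probe sets, with a member median of -0.02. Higher in CSC were Tpm1 1456623_at (1.10 ± 0.30, limma adjusted p = 0.0139) and 1423721_at (0.79 ± 0.28, adjusted p = 0.0438). Lower in CSC were Cnn2 (-1.18 ± 0.32, adjusted p = 0.0144), the dim Acta2 1456658_at (-0.50 ± 0.16, adjusted p = 0.0269) and Actn1 1427385_s_at (-0.48 ± 0.17, adjusted p = 0.0478). In a fit on CSC and TEC alone 1 was higher and 2 lower. Among all 20393 probe sets that fit called 4570, with 2762 higher, against 9152 and 5231 in the reported fit. It lost the calls of Tpm1 1423721_at (adjusted p = 0.153), Acta2 1456658_at (0.168) and Actn1 1427385_s_at (0.164). The call of Actn1 1427385_s_at was also lost without any 1 COF array (0.0549 to 0.0659), without CAF replicate 1 or 2 (0.0655 and 0.0630) and after a second quantile normalization (0.0555). That of Tpm1 1423721_at was lost without COF replicate 3 (0.0594), without any 1 CAF array (0.0620 to 0.0648) and after median centring (0.0621). Single TEC and CSC arrays changed which probe sets passed. Leaving 1 out leaves 1 array in its population, so only differences are given for those fits. Tpm1 1423721_at differed by 0.34 without TEC replicate 1 and by 1.23 without TEC replicate 2. Actn1 1427385_s_at differed by -0.29 and -0.67, and Cnn2 by -1.01 and -1.34. Cald1 1424769_s_at went in opposite directions, at -0.83 without TEC replicate 1 and at 1.25 without TEC replicate 2.

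**Figure D3:**
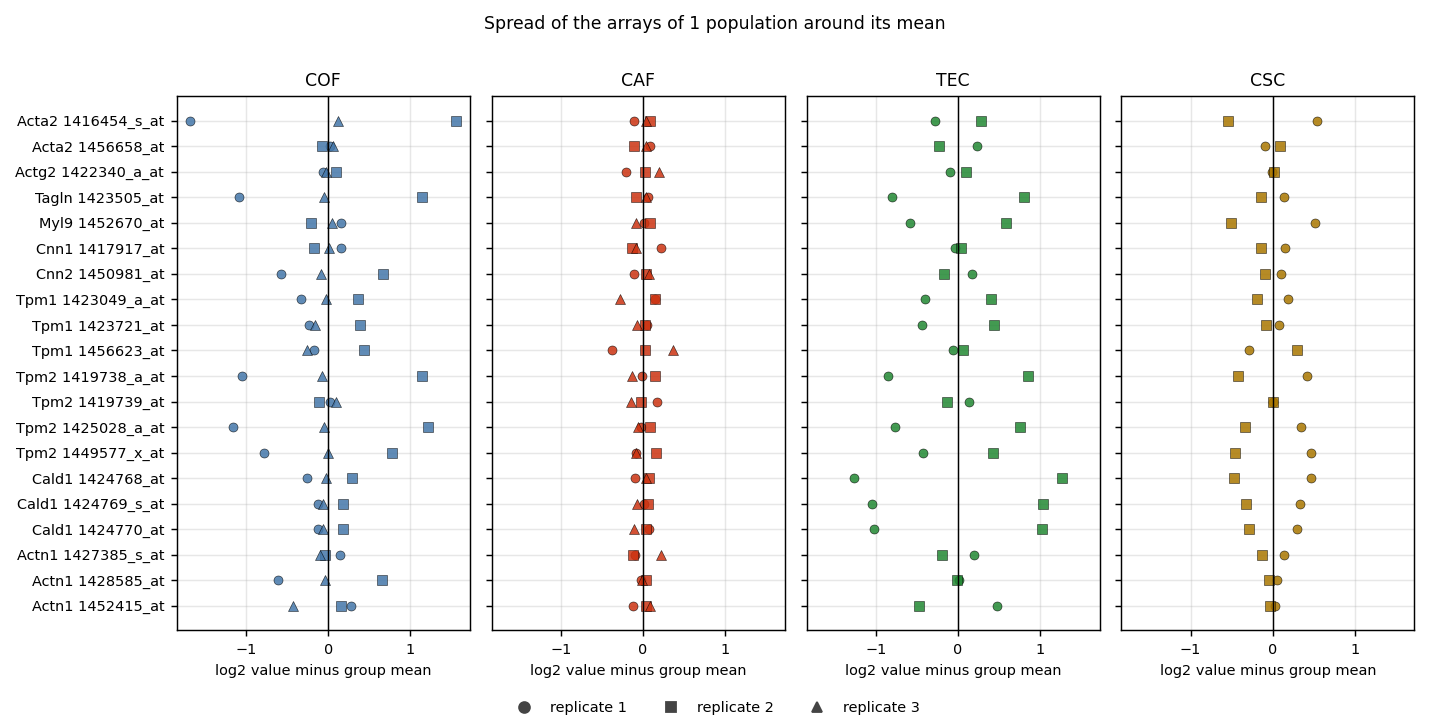
Log2 value of each array minus the mean of its population (horizontal axis) for the 20 contractile probe sets, in 1 panel per population. Symbols are replicates. The CAF arrays lie close to 0, and COF replicates 1 and 2 lie on opposite sides of 0 for most probe sets. With 2 arrays, as in TEC and CSC, the deviations are equal and opposite by construction, so those panels show only which array is higher and by how much.

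The contractile probe sets varied more between arrays of 1 population than most probe sets did, except in CAF. Their median SD was 0.34 in COF against 0.11 over all probe sets, 0.59 in TEC against 0.16, 0.24 in CSC against 0.12, and 0.10 in CAF against 0.09. In COF, replicate 2 was highest for 14 of the 20 probe sets, against 38.0% of all probe sets, and replicate 1 was lowest for 13. In TEC, replicate 2 was highest for 14, against 40.8%, and in CSC replicate 1 was highest for 16, against 49.2%. The largest SDs were 1.63 for Acta2 in COF and 1.78 for Cald1 in TEC. Deviations of Tagln and Tpm2 from their population means went together (r = 0.97), as did those of Cnn2 and Actn1 (r = 0.96) and of Acta2 and Actn1 (r = 0.95). Myl9 and Actn1 gave r = -0.18, and the lowest value among the member pairs was -0.59, for Actg2 and Cnn1. The 10 deviations are not independent, since the population means were removed and those of TEC and CSC are equal and opposite. These pairs share arrays and RNA. Beside these spreads stand the list medians given above for COF replicate 2 and TEC replicate 2, an endothelial list median of 6.30 in COF replicate 2 against 5.25 and 5.48, and a basal list median of 10.15 in CSC replicate 1 against 9.20, and their part in the spread was not tested.

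Most other genes of the contractile machinery did not pass between CAF and COF, and neither did most genes of the array. Over all genes, each read by its brightest probe set, 18.0% were higher and 16.6% lower, or 34.6% in either direction. Of 10 regulators, 1 rose and 2 fell. Srf itself fell by 1.14 on the log2 scale, from 10.03, 9.69 and 9.96 in COF to 8.59, 8.77 and 8.89 in CAF (-1.14 ± 0.12, limma adjusted p = 0.000149). It read 8.55 and 8.47 in TEC and 8.50 and 8.40 in CSC, so COF stood above all other arrays. Elk4, a partner of Srf, fell (-0.47 ± 0.15, adjusted p = 0.0384), and the transcription factor Nfatc4 rose (0.91 ± 0.23, adjusted p = 0.0152). The co-activator Myocd was dim on all arrays, at 4.39 to 4.74. The median difference of the regulators was -0.09.

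Of 11 measured genes of the myosin motor and its switches (15 listed), 2 rose and 1 fell. Non-muscle myosin heavy chain Myh9 rose (0.52 ± 0.11, adjusted p = 0.00606), as did the phosphatase inhibitor Ppp1r14b (0.48 ± 0.13, adjusted p = 0.0202), and the kinase Rock1 fell (-0.51 ± 0.12, adjusted p = 0.0111). Smooth muscle myosin Myh11 read 5.01 to 5.32 in COF and 5.16 to 5.28 in CAF, near the lower quartile (0.10 ± 0.11, adjusted p = 0.542). The light chain kinase Mylk read 7.86 to 8.39 in COF and 7.89 to 7.98 in CAF (-0.17 ± 0.13, adjusted p = 0.377). Like Myl9, Mylk was higher in CAF than in CSC (1.59 ± 0.15, adjusted p = 1.61e-05) and TEC (2.08 ± 0.15, adjusted p = 3.63e-06).

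Of 12 other actins and paralogs of the members, 1 rose and 1 fell. Tagln2, a paralog of Tagln, rose (0.85 ± 0.14, adjusted p = 0.00176) and the tropomyosin Tpm3 fell (-0.31 ± 0.10, adjusted p = 0.0340). The cytoplasmic actins did not pass, with 0.23 ± 0.09 for Actb (adjusted p = 0.0759) and -0.05 ± 0.07 for Actg1 (adjusted p = 0.686). Actn4, the paralog of Actn1, differed by 0.02 ± 0.09 (adjusted p = 0.909) and turned sign when single arrays were left out. Actn4 was instead highest in CSC (12.69 and 12.65, against 11.07 to 11.42 on the other arrays), where it exceeded CAF by 1.54 on the log2 scale (CAF minus CSC -1.54 ± 0.10, adjusted p = 1.33e-06).

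Of 21 measured genes of the smooth muscle cytoskeleton and its adhesions (22 listed), 4 rose and 2 fell. Fblim1, which links filamins to adhesions, read 7.10, 7.71 and 7.28 in COF and 8.90, 9.07 and 9.27 in CAF (1.72 ± 0.16, adjusted p = 0.000105). Csrp1, a LIM protein of smooth muscle, rose by 1.42 ± 0.29 (adjusted p = 0.00540). Synpo and Pdlim5, named here after their values were seen, were the other two that rose. Itga8, an integrin chain of contractile stromal cells, fell (-2.44 ± 0.33, adjusted p = 0.000652) and was dim in CAF, and so did Pdlim7 (-0.78 ± 0.19, adjusted p = 0.0134). Desmin, Des, differed by 0.20 ± 0.10 and did not pass (adjusted p = 0.160).

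**Figure D4:**
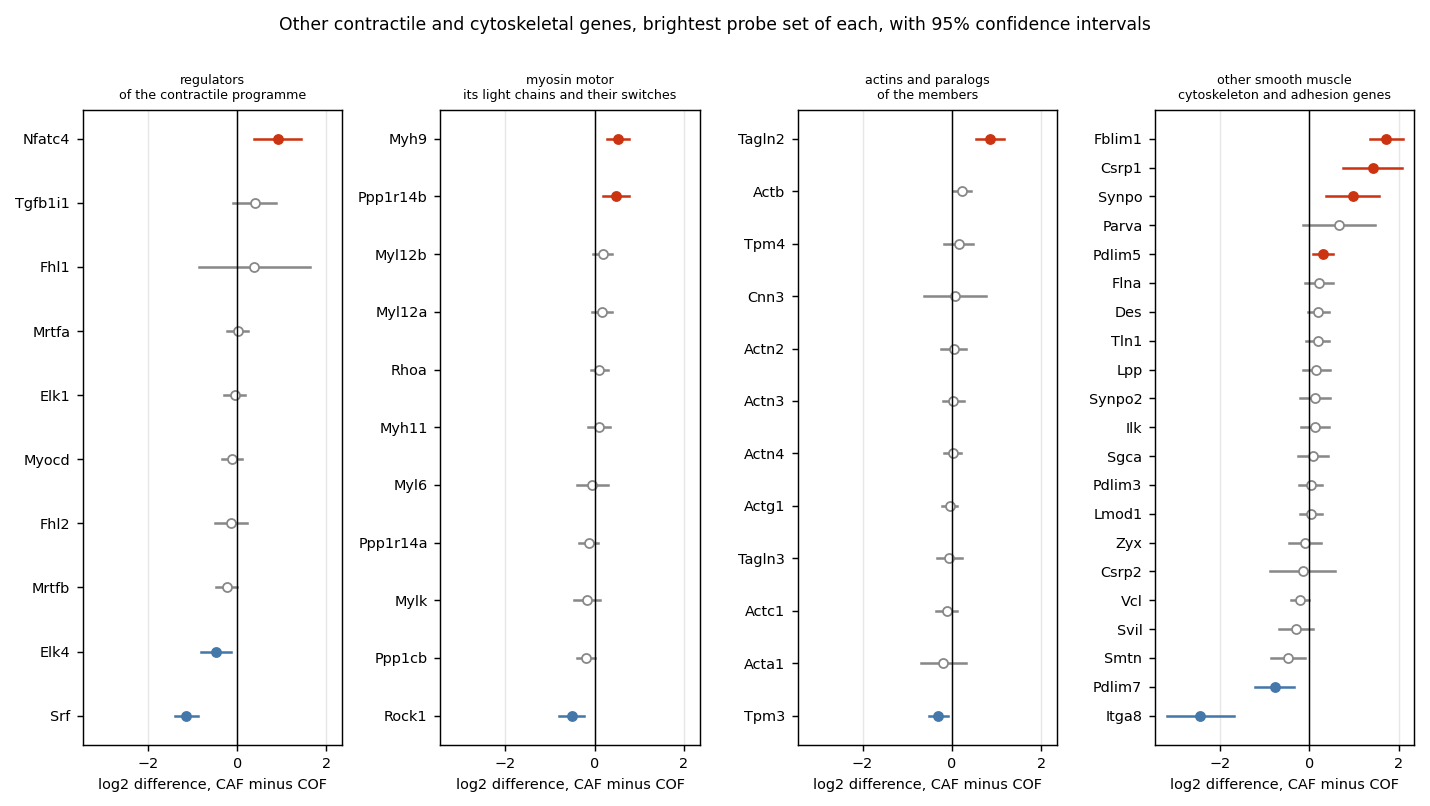
Log2 difference CAF minus COF (horizontal axis) of the other contractile and cytoskeletal genes by their brightest probe set, with 95% confidence intervals from limma. Filled points passed at an adjusted p under 0.05, red where CAF was higher and blue where COF was higher. Srf (-1.14) and Itga8 (-2.44) lie to the left, Fblim1 (1.72) and Csrp1 (1.42) to the right, and most genes near 0.

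Some markers of cells that make contractile genes were higher in CAF too, and others were not. Of 10 pericyte and vascular smooth muscle markers, 3 were higher in CAF than in COF, 1 was lower and 6 did not pass, against 18.0% higher and 16.6% lower over all genes. The list median ranged from 7.07 to 7.25 over the COF arrays and from 7.07 to 7.17 over the CAF arrays. The pericyte gene Rgs5 rose from 7.07, 7.53 and 7.25 in COF to 9.55, 9.98 and 10.11 in CAF (2.60 ± 0.17, limma adjusted p = 2.20e-05). Mcam (0.70 ± 0.23, adjusted p = 0.0441) and the dim Higd1b (0.50 ± 0.12, adjusted p = 0.0120) rose, Abcc9 fell (-1.29 ± 0.31, adjusted p = 0.0116), and Myh11 and Des, which are also counted above, did not pass. Pdgfrb did not pass either, at 12.03, 12.24 and 12.06 in COF and 11.14, 11.25 and 11.30 in CAF. Its CAF arrays all lay below its COF arrays. Of the others that did not pass, Cspg4, Kcnj8 and Des had all CAF arrays above COF, and Notch3 and Myh11 overlapped. Of 9 basal or myoepithelial markers 2 were higher and 0 lower, against the same shares of all genes. All CAF arrays lay above COF for Krt5, Krt14, Krt17, Trp63, Itga6, Cdh3 and Krt15, against 27.7% of all probe sets. Krt14 read 5.48 to 6.12 in COF and 7.28 to 7.46 in CAF, and Krt17 and Trp63 were dim in both. Mme lay below COF on all CAF arrays (10.34 to 10.74 and 9.57 to 9.65), and Oxtr overlapped. The basal list medians were 5.52 to 5.78 in COF and 5.92 to 6.10 in CAF. The part of these cells in the contractile differences was not tested.

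The fibroblast list had 0 of 9 genes that passed between CAF and COF. Without overlap, the CAF arrays lay below COF for Lum, Col6a1 and Dcn, and above COF for Col1a1, Col1a2, Col3a1 and Fn1. Lum read 14.16 to 14.21 in COF and 13.69 to 13.84 in CAF, and Col1a1 11.54 to 12.49 and 12.72 to 12.76. The TEC arrays, whose spread enters the standard error, read 9.13 and 11.68 for Lum and 9.63 and 12.55 for Col1a1. All 8 leukocyte markers were higher in CAF (list medians of 5.22 to 6.07 in COF and 6.79 to 8.12 in CAF), as were 7 of 10 epithelial markers, with 1 lower (6.05 to 7.35 and 7.16 to 7.47). Of 9 endothelial markers 0 were higher and 2 lower, of 12 skeletal muscle markers 0 passed, and of 6 adipocyte markers 4 were lower. Over all genes, 18.0% were higher in CAF than in COF and 16.6% lower. In CSC minus TEC, 6 of 9 basal markers were higher and 0 lower, against 26.5% of all genes higher and 46.5% passing in either direction, among them Krt14 and Trp63, with list medians of 9.20 and 10.15 in CSC and 6.74 and 7.92 in TEC, and the oxytocin receptor Oxtr was dim in all populations. Their part in the contractile values was not tested.

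**Figure D5:**
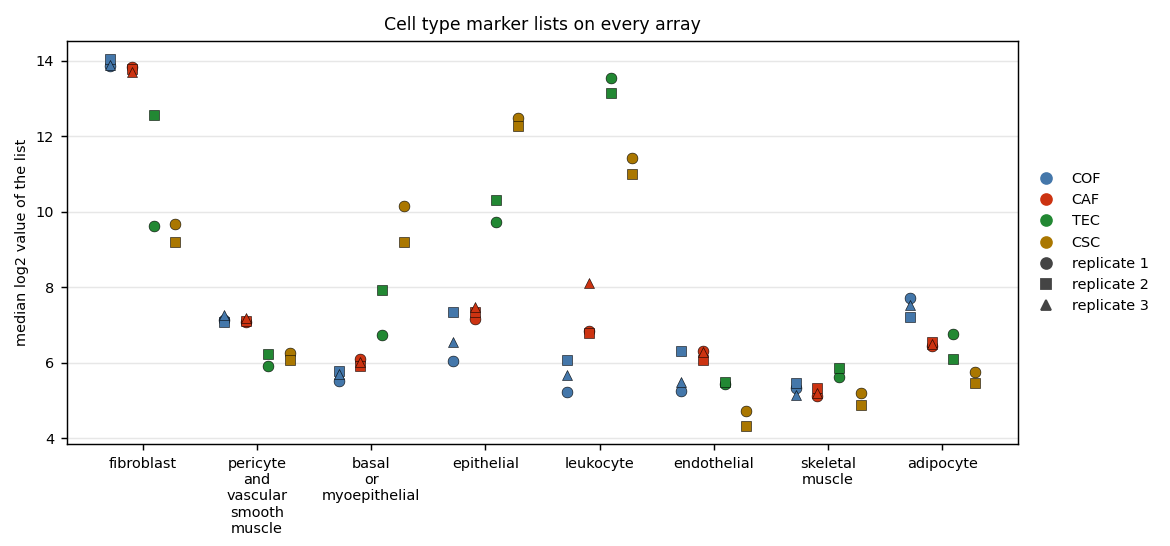
Median log2 value (vertical axis) over the genes of each cell type marker list (horizontal axis) on each array. Colours are populations and symbols replicates. The pericyte and vascular smooth muscle medians of COF and CAF lie between 7.07 and 7.25, and the basal or myoepithelial medians of CSC (9.20 and 10.15) lie above those of the other populations.

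The genes outside the list whose values followed a member most closely over the 10 arrays, predicted and unnamed genes left out, differed between members. For Acta2 1416454_s_at they were Gpc1 (Pearson r = 0.989), Cope, Nt5dc2, Vps26b and Ptprv (0.956). For Tagln they were Steap1 (0.982), the matrix glycoprotein Tnc (0.981), Galnt2, Kcnma1 and the fibrillin Fbn2 (0.975). For Actn1 1428585_at they were Pigs (0.989), haptoglobin Hp (0.984), Gnptab, the acute-phase gene Saa3 (0.982) and Vamp3 (0.980). These values share 10 arrays and 4 populations and describe likeness of pattern only.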

How the data were processed

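RNA of sorted cells was labelled from 100 ng of total RNA per the labels' protocols. The deposited table holds log2 values per probe set, produced by the authors through RMA according to the submitters' processing notes. RMA removes background, gives arrays a common distribution and summarises probes, so that a small true shift of a whole array is lost. Its version, and whether 1 run covered the 10 arrays, are not given in the sources used here. Groups and replicates came from the sample labels. Probe sets annotated to several symbols (691) or to none (1606) were left out. Of the 20393 others, 20364 matched a RefSeq gene.

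These 20393 probe sets entered 1 limma fit (version 3.58.1, R 4.3.3, lmFit and eBayes) with a mean for each population, so that 10 arrays estimate the spread. Tests were two-sided with Benjamini-Hochberg adjustment within a comparison, and a probe set passed at an adjusted p under 0.05. The script was tested on simulated data. Precision is limited by 2 or 3 arrays per population.

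The members and all gene lists were chosen with earlier results of these data known. Lists were counted by the brightest probe set of a gene (highest mean over all arrays). The text names every member probe set and a fixed set of related genes such as Srf and Myh11. In each list of other contractile genes it names up to 4 genes with the smallest adjusted p in CAF minus COF. For the other comparisons of these lists, only differences of Mylk and Actn4 are given. The 5 genes most like Acta2, Tagln and Actn1 are named too, with predicted and unnamed genes left out. Marker genes are examples chosen after their values were seen. Alternatives were a fit on only the arrays compared, a replicate block, another variance model, a filter on dim probe sets, 1 probe set per gene, other scalings, averaging of close arrays, each array left out in turn, and stricter thresholds.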

Additional observations from a re-analysis of the deposited data

How the results depend on the processing

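Of the 20 contractile probe sets in CAF minus COF, 11 were higher in the reported fit, and 16 in a fit on the CAF and COF arrays alone, 11 with a replicate block, 12 after a second quantile normalization, 11 after median centring of the arrays, 11 when the variance prior was robust and followed the mean, 11 of the 16 left when the dimmest 30% were dropped, and 8 with CAF replicates 1 and 2 and COF replicates 1 and 3 averaged. Among all 20393 probe sets, 3326 were higher in the reported fit, 4513 in the fit on CAF and COF alone and 1181 with averaged arrays. The replicate block gave 3028, the second quantile normalization 3404, centring 3141, the other variance prior 3288, and the filter on dim probe sets 3129 of 14275. Averaging lost Tpm1 1423049_a_at (adjusted p = 0.0687) and the Tpm2 pair (0.205 and 0.179). Leaving out 1 CAF or COF array gave 9 to 12, with 2111 to 3302 higher among all probe sets. In every setting 0 member probe sets were lower. Same-numbered arrays had correlations of deviations of -0.08 to 0.13. With 2 or 3 arrays per population, these values cannot decide whether the replicate number pairs the samples. In TEC and CSC, with 2 arrays each, the deviations are also equal and opposite by construction. The block gave 6339 called probe sets in CAF minus COF and 8509 in CSC minus TEC, against 6878 and 9152 without it. It gave 12521 in CAF minus CSC and 12842 in CAF minus TEC, against 13222 and 13544. With 1 probe set per gene the comparisons, in this order, gave 4309, 5786, 8247 and 8364, with fewer features tested. With a log2 difference of at least 1 they gave 1601, 3565, 5301 and 5715. CAF minus COF had 2912 with averaged arrays and 4160 at an adjusted p under 0.01, and CSC minus TEC 4570 with only its arrays fitted. Centring on the median shifted CSC minus TEC by -0.105 over all probe sets and CAF minus CSC by 0.097, so that 4415 of 9279 calls in the first were higher (reported 5231 of 9152) and 7788 of 13339 in the second (reported 6841 of 13222).

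Signs turned only for differences that had not passed in the reported fit. In CSC minus TEC centring gave -0.10 for Cnn1, -0.03 for Tpm2 1419739_at and -0.01 for Tpm2 1449577_x_at. In CAF minus CSC the second quantile normalization gave -0.07 for Cnn1 and -0.11 for Tpm2 1419739_at, and averaging gave -0.01 for the latter. With 1 array left out, CSC minus TEC ranged from -0.65 to 0.52 for Myl9, -0.14 to 0.16 for Cnn1, -0.06 to 0.21 for Tpm2 1419739_at, -0.37 to 0.55 for Tpm2 1449577_x_at, and from -1.0 to 1.52, -0.83 to 1.25 and -1.06 to 0.97 for the Cald1 probe sets. CAF minus CSC ranged from -0.03 to 0.27 for Cnn1 and -0.06 to 0.09 for Tpm2 1419739_at, CAF minus TEC from -0.04 to 0.23 for Tpm2 1419739_at and -0.08 to 0.87 for Actn1 1452415_at, and Actn4 in CAF minus COF from -0.03 to 0.05. The cause of these changes was not tested.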
